A study of Homo sapiens with 12 samples.

Results

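The clustered histone genes encode linker histone H1 and the core histones H2A, H2B, H3 and H4, and 71 of them were described among the 59191 features of an expression table from Huh7 cells, an established human hepatocellular carcinoma line. A gene was included where its identifier carried, in GENCODE release 29, a protein-coding symbol starting with HIST1H, HIST2H, HIST3H or HIST4H, for the loci HIST1 on chromosome 6, HIST2 and HIST3 on chromosome 1 and HIST4 on chromosome 12. The 12 bulk RNA libraries fell into 4 groups of 3: control cells (DMSO in the column names), cells given disulfiram (coded D10), cells given thalidomide (coded T20) and cells given both drugs (coded D10T20). Disulfiram is an aldehyde dehydrogenase inhibitor used in alcohol dependence, and thalidomide is a ligand of cereblon, a protein that selects targets for ubiquitin tagging. The sources used here do not give the unit of the doses, the time of treatment, the library kit, its strandedness or the depth, and a protocol text in the labels describes single-cell libraries from patient tissue, which is not what the table or the other labels hold. Since no label says whether libraries of a group were grown separately, the p-values cover just the spread among these libraries, which may be technical.

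Most of these genes are transcribed in S phase, when new DNA is packed into nucleosomes, and their mRNAs end in a conserved stem-loop in place of a poly(A) tail. The stem-loop is bound by SLBP, and the U7 small nuclear RNP helps cut the transcript just after it. Some clustered histone genes also yield longer mRNAs with a poly(A) tail, above all outside S phase and in differentiating cells.

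A stem-loop was found in 31 of the 36 genes with an annotated 3′ UTR, starting 23 to 68 bases after the stop codon. The search took a perfect stem of 6 bases around a loop of 4 bases, starting GG and ending CC, within 150 bases after the stop. The other 35 genes have no annotated 3′ UTR in GENCODE, among them HIST1H2BK, HIST1H1C and HIST2H2AC. The 5 forms found are shown because they separate the H4 genes from the rest, with the stem in capitals and the loop in lower case.
Form of 17 H2A, H2B and H3 genes, HIST2H2AA3, HIST2H2AA4 and HIST2H2BE among them: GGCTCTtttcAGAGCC
Form of 5 H2B and H3 genes, HIST1H2BD among them: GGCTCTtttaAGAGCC
Form of HIST1H3E: GGCTCTtctcAGAGCC
Form of 5 H4 genes, HIST1H4H and HIST4H4 among them: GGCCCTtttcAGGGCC
Form of HIST2H4A, HIST2H4B and HIST1H4I: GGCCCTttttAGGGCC
Every stem-loop found in an H2A, H2B or H3 gene had a GGCTCT stem, and every one found in an H4 gene had a GGCCCT stem.

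Promoters of 66 of the 71 genes were matched in a RefSeq table for GRCh38.p14 that holds 250 bases before to 50 bases after each start. CCAAT, the core of the element bound by the factor NF-Y, was found on either strand in 84.8% of them, against 35.7% of all 27305 promoters in that table. The letters TATAAA were in 66.7% against 12.0%, and TTTGCAT, most of the octamer bound by POU2F1, was in 39.4% against 4.51%. All H1, H2A, H2B and H3 promoters held CCAAT, but 3 of 13 H4 promoters did (23.1%). TTTGCAT was in 77.8% of H2B and 68.8% of H2A promoters, in 7.69% of H3 promoters and in no H1 or H4 promoter. The promoters of 3 genes with results described below are shown, with matches to these words on either strand in capitals.
HIST2H2AA3, chr1:149842701-149843000, minus strand, GRCh38.p14: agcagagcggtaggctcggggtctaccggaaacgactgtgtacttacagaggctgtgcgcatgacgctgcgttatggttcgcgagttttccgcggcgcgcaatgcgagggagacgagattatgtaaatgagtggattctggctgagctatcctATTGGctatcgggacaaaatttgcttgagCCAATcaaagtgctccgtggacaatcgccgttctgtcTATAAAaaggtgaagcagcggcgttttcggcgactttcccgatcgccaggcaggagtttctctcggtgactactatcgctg
HIST2H2AC, chr1:149886668-149886967, plus strand, GRCh38.p14: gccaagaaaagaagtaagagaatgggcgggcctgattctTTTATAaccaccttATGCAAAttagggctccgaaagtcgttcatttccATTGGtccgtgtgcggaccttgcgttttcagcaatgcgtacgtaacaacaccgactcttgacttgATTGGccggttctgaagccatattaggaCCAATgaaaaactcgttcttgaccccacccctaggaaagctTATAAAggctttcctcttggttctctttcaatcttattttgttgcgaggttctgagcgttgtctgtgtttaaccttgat
HIST1H1C, chr6:26056421-26056720, minus strand, GRCh38.p14: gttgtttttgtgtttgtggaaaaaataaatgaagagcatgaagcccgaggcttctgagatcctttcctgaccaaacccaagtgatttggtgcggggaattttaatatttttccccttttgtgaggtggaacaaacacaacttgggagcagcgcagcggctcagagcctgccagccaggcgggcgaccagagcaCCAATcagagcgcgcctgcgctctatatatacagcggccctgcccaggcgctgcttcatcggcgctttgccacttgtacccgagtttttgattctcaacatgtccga
The HIST2H2AA4 promoter was the same as that of HIST2H2AA3 over all 299 bases compared, and both genes start 8325 bases apart. The HIST2H2AC window covers 265 bases of the HIST2H2BE window on the opposite strand, so these neighbours are transcribed away from each other from 1 shared stretch. The HIST1H1C window holds CCAAT and neither of the other words. A match is a description of letters in this window, not a measured binding site.

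Levels are in TPM, a share of all transcripts on a fixed scale, which corrects for gene length and for the library's total. Most of the genes were low: 36 passed the filter of at least 1 TPM in at least 3 of the 12 libraries, and 35 were too low to judge. Those 35 reached at most 1.67 TPM in any library, and 7 of them were listed at 0 in all 12. By type, 1 of 6 H1 genes, 11 of 17 H2A genes, 9 of 18 H2B genes, 6 of 15 H3 genes and 9 of 15 H4 genes passed. By locus, 27 of 55 HIST1 genes, 7 of 12 HIST2 genes, 1 of 3 HIST3 genes and the only HIST4 gene passed. Even among the 36, 13 were listed at 0 in at least 1 library, and 9 had a mean of at least 5 TPM over the 12 libraries.

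**Figure D1:**
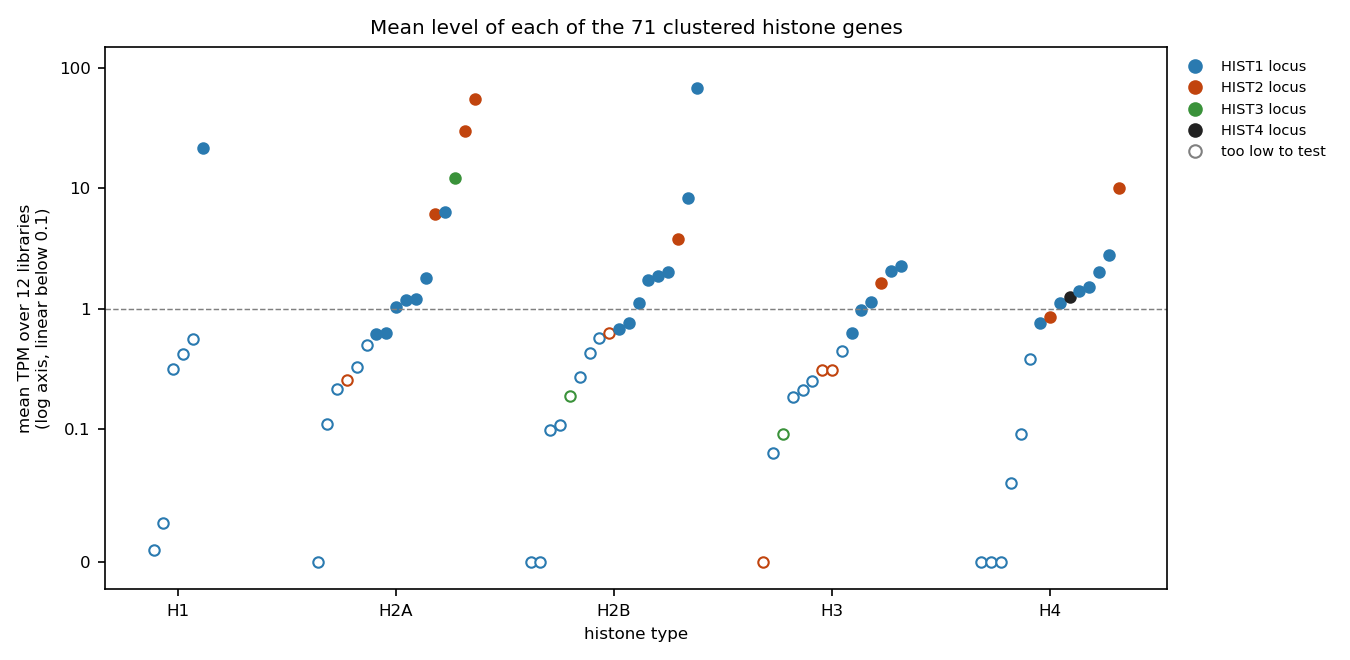
Mean TPM over the 12 libraries (log axis) of each clustered histone gene, arranged by histone type and coloured by locus, with a dashed line at 1 TPM. Filled points passed the filter and open points were too low to judge; HIST1H2BK, HIST2H2AA3 and HIST2H2AA4 are the 3 highest.

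In order of mean TPM, HIST1H2BK came first at 68.9, then HIST2H2AA3 at 55.3, HIST2H2AA4 at 29.9, HIST1H1C at 21.8, HIST3H2A at 12.1 and HIST2H4A at 10.01. HIST2H2AA3 and HIST2H2AA4 together made 15.1 to 42.9% of the summed TPM of all 71 genes in a library, and HIST1H2BK made 22.7 to 32.4%. Adjacent genes were far apart in level: HIST1H2AH, which starts 330 bases from HIST1H2BK on the other strand, had a mean of 0.62 TPM. Among H1 genes, only HIST1H1C passed, while HIST1H1A ranged from 0 to 0.91 TPM and HIST1H1E from 0 to 1.12 TPM.

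Several genes are near-identical copies, taken as at least 97% identity over at least 80% of the shorter coding sequence, so reads cannot be placed with certainty on 1 copy. There were 5 such sets with 12 genes: HIST2H2AA3 with HIST2H2AA4, HIST2H4A with HIST2H4B, HIST1H4J with HIST1H4K, HIST1H2AI with HIST1H2AJ, and HIST2H3A with HIST2H3C, HIST2H3D and HIST2H3PS2. Values of single copies in a set are therefore uncertain. TPM corrects for length, so the summed TPM is nearly free of the split just where copies have similar lengths. The longest coding transcripts have 549 and 564 bases for HIST2H2AA3 and HIST2H2AA4. They have 583 and 1132 bases for HIST2H4A and HIST2H4B, and 1656 bases for HIST2H3A against 411 for HIST2H3D. Sums over those last copies depend on the split. HIST2H3A and HIST2H3C had the same value in every library, from 0.13 to 0.48 TPM, and HIST2H3PS2 was at 0 in all 12. Of the 36 genes tested, 7 also overlap another gene in GENCODE, and the counting strand is not given.

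Summed over all 71 genes, the TPM was higher in every library given disulfiram than in any control. The control libraries held 199.27, 231.23 and 192.39 TPM, those with disulfiram 302.66, 341.58 and 338.64, those with thalidomide 158.42, 217.48 and 218.54, and those with both drugs 333.74, 308.57 and 337.02. The group means were 208 ± 20.7, 328 ± 21.7, 198 ± 34.4 and 326 ± 15.6 TPM (SD, n = 3), or 1.58 times the control with disulfiram, 0.954 times with thalidomide and 1.57 times with both. Without HIST1H2BK, HIST2H2AA3 and HIST2H2AA4 the sum was 103 ± 1.45 TPM in controls, 119 ± 14.0 with disulfiram, 102 ± 17.7 with thalidomide and 120 ± 5.16 with both (SD, n = 3). The ratio to control was then 1.16 with disulfiram and 1.17 with both drugs, so most of the added TPM lay in these 3 genes. Between control and disulfiram means, the HIST2H2AA3 and HIST2H2AA4 sum went from 41.1 to 130 TPM and HIST1H2BK from 63.8 to 78.8 TPM. In bulk samples, more cells of a kind and more RNA per cell cannot be told apart.

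By locus, the HIST2 sum differed most from its control in TPM: 63.7 ± 15 TPM in controls, 156 ± 2.17 with disulfiram, 63.6 ± 11.4 with thalidomide and 153 ± 4.86 with both drugs (SD, n = 3). The HIST1 sum was 132 ± 4.21, 157 ± 19.2, 120 ± 25.0 and 159 ± 11.9 TPM in the same order, a ratio of 1.19 with disulfiram. By type, the H2A sum was 2.24 times the control with disulfiram (72.6 ± 15.5 against 162 ± 5.34 TPM), and the H1 sum was 1.55 times (18.1 ± 0.774 against 28.1 ± 4.47 TPM). The HIST2H2AA3 and HIST2H2AA4 pair, part of both the HIST2 and the H2A sum, was 41.1 ± 14.9 TPM in controls and 130 ± 0.153 with disulfiram. Nearly all of the added TPM of the H2A and HIST2 sums lay in this pair. The H2B sum was 1.22 times the control (83.7 ± 9.83 against 102 ± 11.3 TPM), and its control and disulfiram libraries overlapped. H3 sums were 11.7 ± 1.95 and 10.7 ± 1.53 TPM, and H4 sums 21.6 ± 1.98 and 24.2 ± 2.38 TPM, with overlapping libraries for H3 and H4. No p is given for a sum over a type or a locus.

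**Figure D2:**
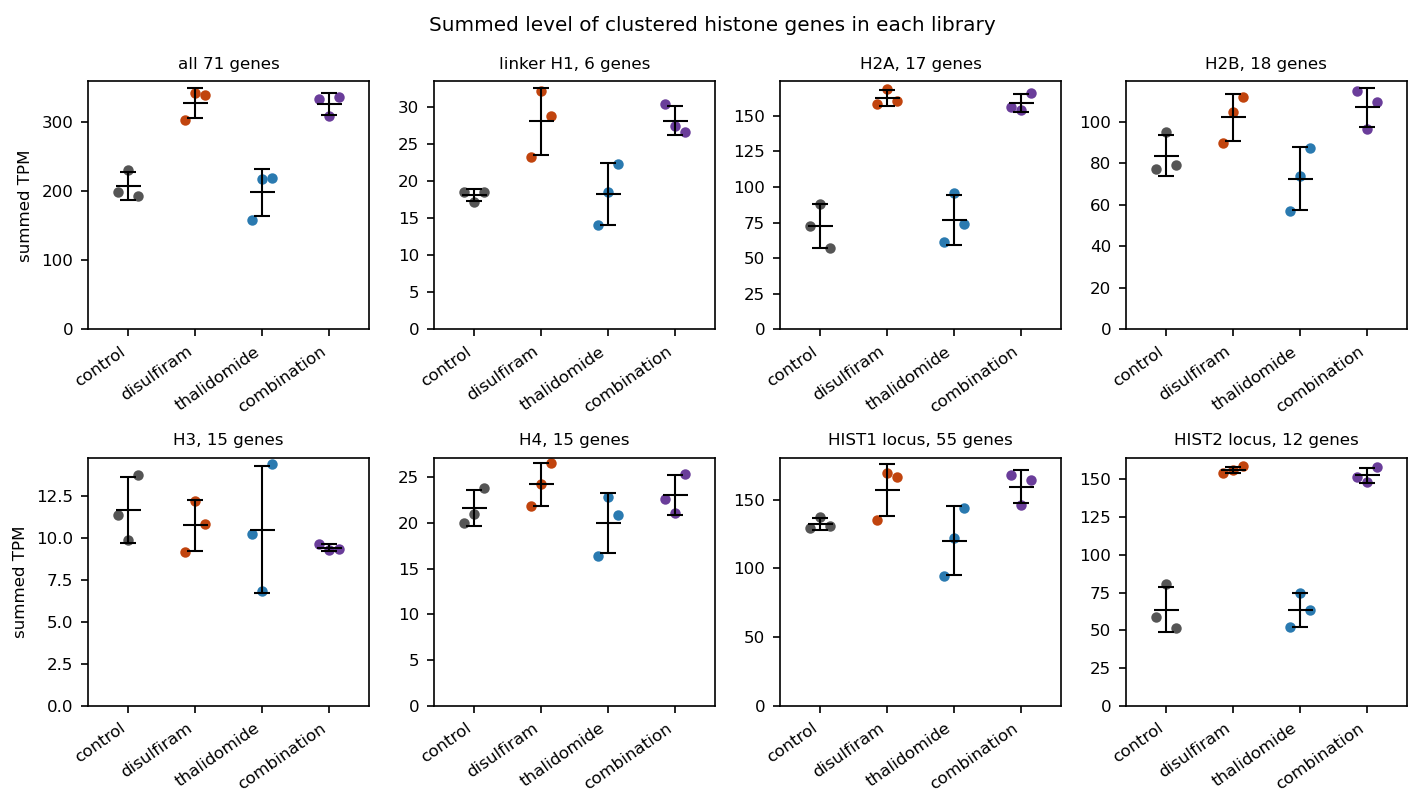
Summed TPM in each library (points) with the mean ± SD of 3 libraries (bars) for all 71 genes, for each histone type and for the HIST1 and HIST2 loci, by treatment. The HIST2 and H2A panels separate libraries with disulfiram from those without it, and the H3 panel does not.

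Each gene was then tested with limma on log2(TPM + 1) over all 15352 genes that passed the filter, with Benjamini-Hochberg adjusted p below 0.05 as the threshold. On this scale the change of low genes is understated. With disulfiram against control, 6 of the 36 genes passed, against a background of 13.2% of all genes tested. Of these, 5 were higher (background 8.73%), and HIST1H3F, which passed the filter through its controls, was lower (background 4.52%). The median log2 fold change of the 36 was 0.09, the same as the 0.09 of all genes, with 20 genes above 0 and 16 below. The genes that were higher were HIST2H2AA3, HIST2H2AA4, HIST2H2BE, HIST2H4A and HIST1H1C. Of the 7 HIST2 genes tested, 4 were higher and their median was 0.69, while the 27 HIST1 genes had 1 higher, 1 lower and a median of 0.00. Those 7 count the near-identical HIST2H2AA3 and HIST2H2AA4, and HIST2H4A and HIST2H4B, singly. With copies summed, each of these pairs and HIST2H2BE were higher. HIST2H2AC and the set of HIST2H3D (-0.26 ± 0.32, adjusted p = 0.650, limma) were below 0 and did not pass. With both drugs against control, 7 of 36 passed (background 25.1%), 5 higher (background 18.4%) and 2 lower (background 6.70%). Their median was 0.15, against 0.20 for all genes. Both comparisons share the 3 control libraries. With median-of-ratios scaling, which moved the median of all genes to 0.00 and 0.03, the split became 4 higher and 1 lower with disulfiram and 3 higher and 3 lower with both drugs, and with a GC correction it was 4 higher and 3 lower with disulfiram. Without the first control, the third control, the second disulfiram library or the third, 2 passed with disulfiram. Without the first control 4 passed with both drugs, without the first combination library 2 and without the third 3.

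**Figure D3:**
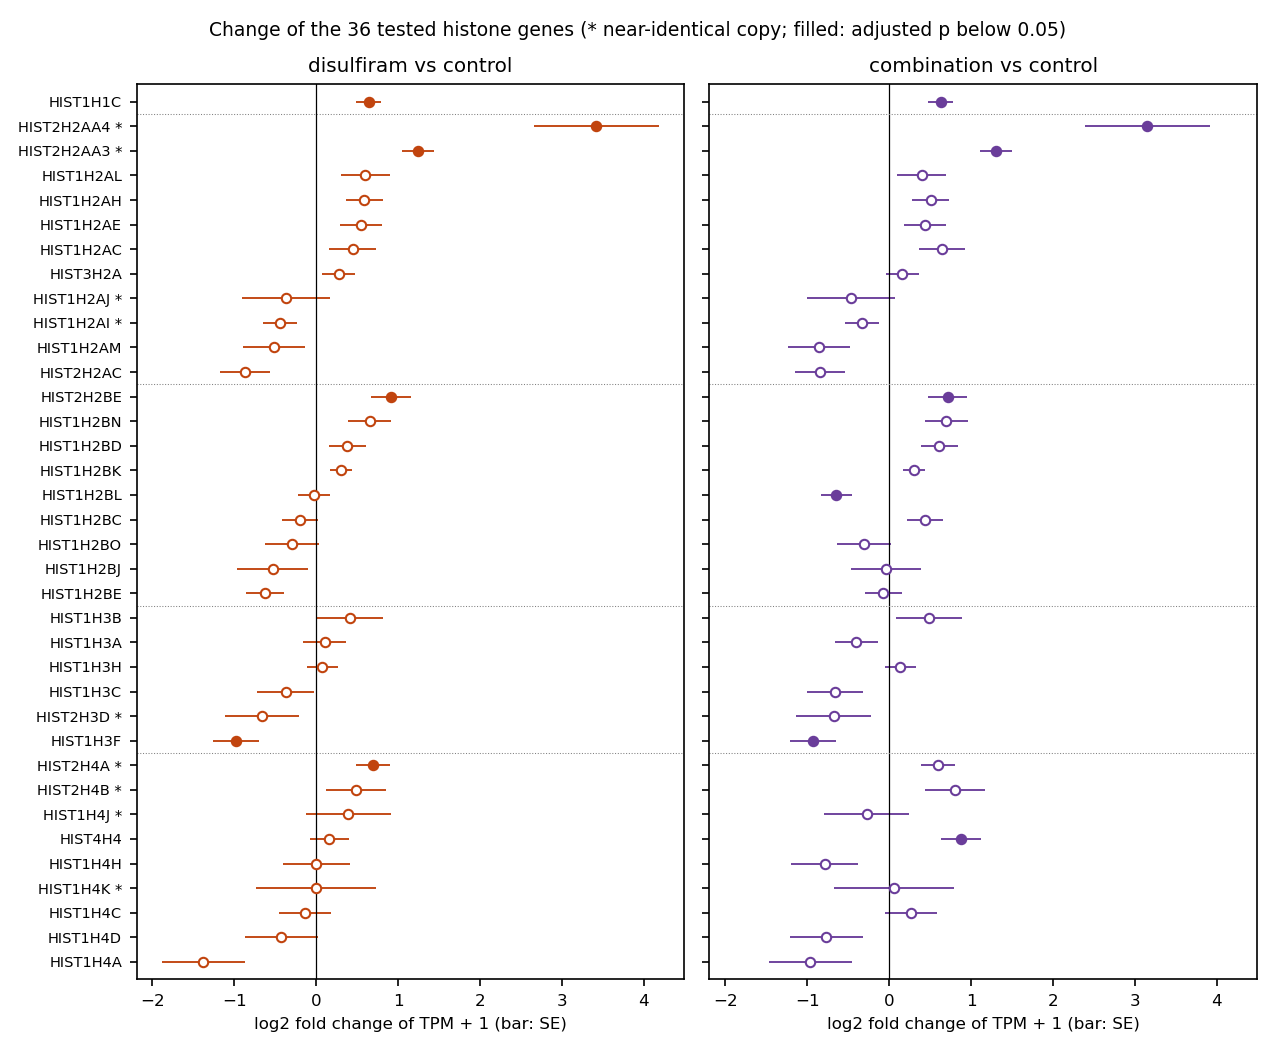
Log2 fold change on the log2(TPM + 1) scale, with SE, of the 36 tested genes with disulfiram and with both drugs against control, by histone type. Filled points have an adjusted p below 0.05 and an asterisk marks a near-identical copy; HIST2H2AA4 and HIST2H2AA3 lie farthest to the right.

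The H2A pair HIST2H2AA3 (chr1:149842188-149842736, minus strand, GENCODE 29 on GRCh38) and HIST2H2AA4 (chr1:149851061-149851624, plus strand) encode the same H2A protein and share 100% of their coding sequence. Their summed TPM was 36.56, 57.66 and 29 in controls and 129.84, 129.78 and 130.07 with disulfiram. It was 33.13, 55.54 and 39.94 with thalidomide and 125.92, 121.1 and 134.03 with both drugs. Libraries with disulfiram, alone or with thalidomide, lay above every library without it and spread little, and thalidomide libraries lay within the control range. Fitted as 1 gene, the pair rose by a log2 fold change of 1.69 ± 0.22 (SE, adjusted p = 0.000585, limma) with disulfiram and 1.66 ± 0.22 (adjusted p = 0.000819) with both drugs. With thalidomide alone the value was 0.09 ± 0.22 (adjusted p = 0.991), and with both drugs against disulfiram alone it was -0.03 ± 0.22 (adjusted p = 0.946).

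HIST2H2AA3 alone had 36.56, 38.33 and 23.95 TPM in controls, 79.31, 76.83 and 76.64 with disulfiram, 21.74, 36.5 and 28.04 with thalidomide and 97.14, 73.02 and 75.48 with both. Its log2 fold change was 1.24 ± 0.20 with disulfiram (adjusted p = 0.00223) and 1.3 ± 0.20 with both (adjusted p = 0.00173), and both calls held under every alternative run. HIST2H2AA4 alone had 0, 19.33 and 5.05 TPM in controls, 50.53, 52.95 and 53.43 with disulfiram, 11.39, 19.04 and 11.9 with thalidomide and 28.78, 48.08 and 58.55 with both. In the first control library the whole of the pair's TPM was placed on HIST2H2AA3, so the HIST2H2AA4 fold (3.42 ± 0.77 with disulfiram, adjusted p = 0.0131, and 3.16 ± 0.77 with both, adjusted p = 0.0147) carries the uncertainty of the split. The HIST2H2AA4 call with disulfiram was lost with just the compared groups fitted (adjusted p = 0.0596), and that with both drugs without the third combination library (adjusted p = 0.0589).

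HIST2H2AC (chr1:149886975-149887364, plus strand), an H2A gene of the same locus with 94.6% coding identity to HIST2H2AA3, did not follow the pair. It had 9.8, 5.51 and 10.28 TPM in controls, 4.57, 4.87 and 3.0 with disulfiram, 5.98, 6.5 and 8.85 with thalidomide and 2.58, 7.31 and 3.58 with both drugs. All disulfiram libraries lay below all controls, and the second combination library lay among the controls. The log2 fold change was -0.87 ± 0.30 with disulfiram (adjusted p = 0.0837) and -0.85 ± 0.30 with both (adjusted p = 0.0601), short of the threshold. Without the second control it passed with disulfiram (-1.12, adjusted p = 0.0485) and with both drugs (-1.10, adjusted p = 0.0371). Without the second combination library it also passed, with disulfiram (adjusted p = 0.0345) and with both drugs (-1.19, adjusted p = 0.00889). It also passed with disulfiram under the GC correction (-0.96, adjusted p = 0.0363) and with both drugs under median-of-ratios scaling (-1.01, adjusted p = 0.0380).

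HIST2H2BE (chr1:149884459-149886652, minus strand), the H2B gene that shares the promoter stretch with HIST2H2AC shown above, was low and higher with disulfiram. It had 2.65, 3.52 and 1.37 TPM in controls, 4.49, 5.64 and 6.2 with disulfiram, 1.74, 3.68 and 2.73 with thalidomide and 4.47, 4.79 and 4.48 with both. Every library with disulfiram lay above every library without it. The log2 fold change was 0.92 ± 0.24 with disulfiram (adjusted p = 0.0274) and 0.72 ± 0.24 with both (adjusted p = 0.0481), so the neighbours HIST2H2BE and HIST2H2AC had fold changes of opposite sign, of which that of HIST2H2BE passed the test. The disulfiram call was lost without the first control (adjusted p = 0.0610), the third control (0.0959), the second disulfiram library (0.0585) or the third (0.0981), and the call with both drugs held in 3 of 12 such omissions (log2 fold change 0.46 without the third control, adjusted p = 0.168). No filter (adjusted p = 0.0739 and 0.111) and just the compared groups (0.0622 and 0.0609) ended both calls, and the GC correction (0.50, adjusted p = 0.136), median-of-ratios scaling (0.56, 0.0985) and a pseudocount of 0.1 (0.0529) ended that with both drugs.

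**Figure D4:**
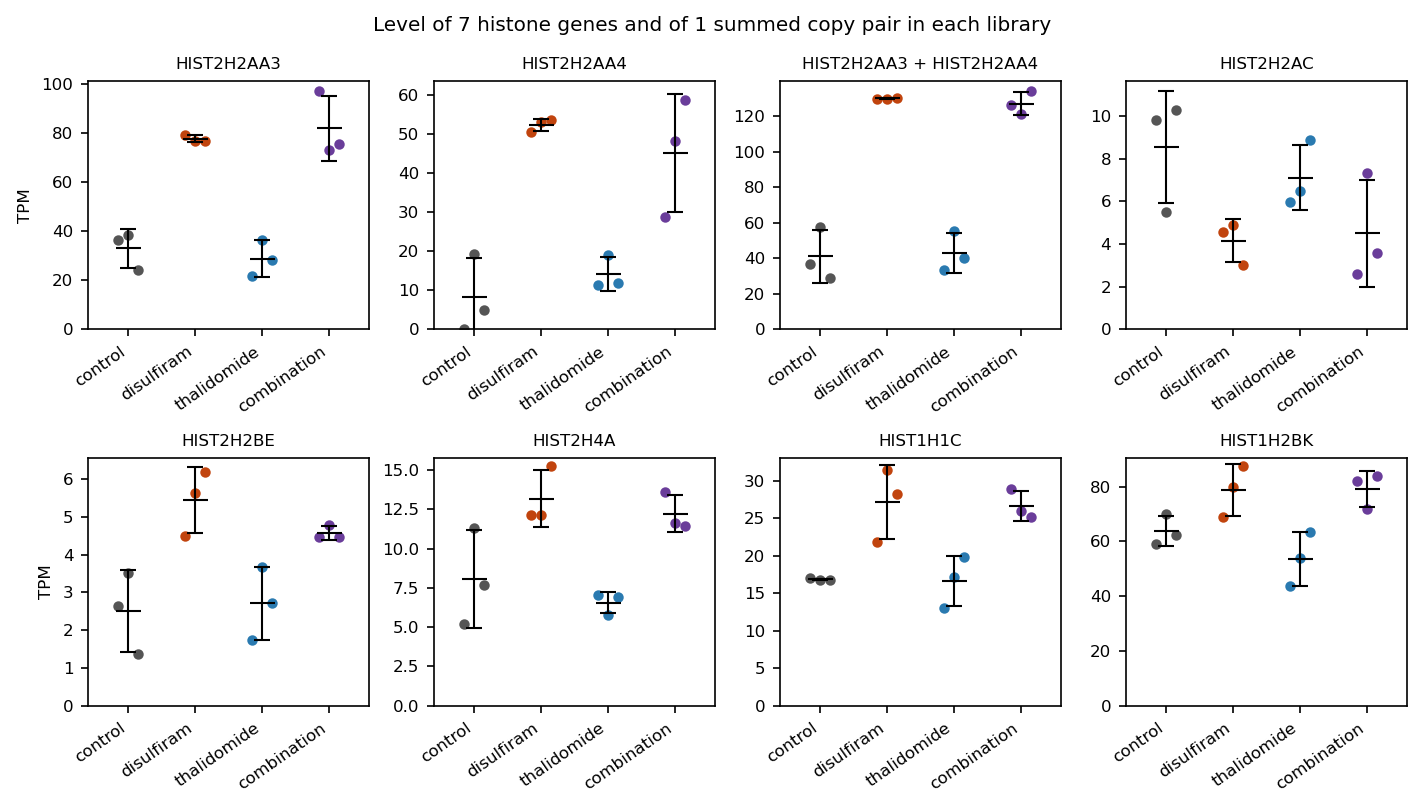
TPM in each library (points) with the mean ± SD of 3 libraries (bars) for 7 genes and for the sum of HIST2H2AA3 and HIST2H2AA4, by treatment. All 3 disulfiram libraries of HIST2H2AC lie below its controls, a difference that did not pass the test (adjusted p = 0.0837), while its neighbour HIST2H2BE is higher, and HIST1H1C lies at 16.75 to 16.97 TPM in the 3 controls.

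No other H2A gene passed against control with disulfiram or with both drugs. HIST3H2A (chr1:228456979-228457873), the H2A gene of the HIST3 locus, had 9.99, 13.13 and 9.1 TPM in controls, 11.94, 15.03 and 12.41 with disulfiram, 10.21, 18 and 9.87 with thalidomide and 10.96, 12.34 and 12.79 with both drugs. These groups overlapped, and its log2 fold change with disulfiram was 0.28 ± 0.20 (adjusted p = 0.417). HIST1H2AE, an H2A gene of the HIST1 locus, had 1.41, 1.34 and 1.39 TPM in controls, 2.68, 1.84 and 3.06 with disulfiram, 0.2, 1.57 and 1.42 with thalidomide and 2.3, 2.4 and 2.01 with both. Its disulfiram libraries lay above the controls with a log2 fold change of 0.55 ± 0.26 (adjusted p = 0.183), which did not pass except without the first thalidomide library (adjusted p = 0.0442).

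Among H2B genes of the HIST1 locus, HIST1H2BK (chr6:27146418-27146798, minus strand) had the highest mean TPM over the 12 libraries of any single clustered histone gene. It had 59.17, 69.96 and 62.32 TPM in controls, 68.85, 79.99 and 87.56 with disulfiram, 43.64, 54.04 and 63.25 with thalidomide and 81.9, 71.65 and 83.92 with both. The lowest disulfiram library lay within the control range, and the log2 fold change was 0.30 ± 0.13 (adjusted p = 0.174) with disulfiram and 0.31 ± 0.13 (adjusted p = 0.106) with both. HIST1H2BD, another H2B gene, had 5.04, 9.28 and 6.82 TPM in controls, 8.31, 9.43 and 9.99 with disulfiram, 4.8, 4.3 and 7.64 with thalidomide and 13.85, 9.56 and 10.13 with both. Its libraries with both drugs lay above all controls, with a log2 fold change of 0.62 ± 0.22 that did not pass (adjusted p = 0.0622) except without the second control (0.81, adjusted p = 0.0364) or the third thalidomide library (adjusted p = 0.0430). HIST1H2BL (chr6:27807444-27807931) was near 1 TPM, with 1.33, 0.74 and 0.66 in controls, 1.26, 0.9 and 0.48 with disulfiram, 1.1, 1.07 and 0.97 with thalidomide and 0.21, 0.22 and 0.2 with both. No combination library of HIST1H2BL reached 1 TPM. It passed the filter through the other groups, so its calls with both drugs are not independent of the filter. It was lower with both drugs against control (-0.64 ± 0.19, adjusted p = 0.0309), and its value with disulfiram was -0.03 ± 0.19 (adjusted p = 0.946). That call was lost without the first control (-0.49, adjusted p = 0.113), the second control (adjusted p = 0.0506), the first combination library (0.0862) or the third (0.0899).

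HIST1H1C (chr6:26055787-26056428, minus strand) encodes the linker histone H1.2, which binds DNA between nucleosomes, and was the only H1 gene above the filter. It had 16.97, 16.83 and 16.75 TPM in controls, 21.83, 31.45 and 28.27 with disulfiram, 13.03, 17.12 and 19.77 with thalidomide and 28.95, 25.99 and 25.13 with both. Libraries with disulfiram lay above all others. The log2 fold change was 0.64 ± 0.15 with disulfiram (adjusted p = 0.0173) and 0.63 ± 0.15 with both (adjusted p = 0.0145). The disulfiram call was lost without the first control (adjusted p = 0.0509), the third control (0.0515), the second disulfiram library (0.0522) or the third (0.0642), with log2 fold changes of 0.53 to 0.65. The call with both drugs was lost without the first combination library (adjusted p = 0.0594) and with median-of-ratios scaling (adjusted p = 0.0599).

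H3 genes were low in all groups. HIST1H3F (chr6:26250195-26250605) had 1.69, 1.56 and 1.01 TPM in controls, 0.32, 0 and 0.37 with disulfiram, 0.34, 0.33 and 0.89 with thalidomide and 0, 1.0 and 0 with both. Outside the controls it reached 1 TPM in the second combination library alone. It passed the filter through its controls, so its calls against control are not independent of the filter. It was lower with disulfiram (log2 fold change -0.98 ± 0.28, adjusted p = 0.0387) and with both drugs (-0.93 ± 0.28, adjusted p = 0.0322), and its value with thalidomide was -0.68 ± 0.28 (adjusted p = 0.842), also with every library below the controls. The disulfiram call was lost without any 1 of the 6 libraries compared (adjusted p up to 0.122), with a pseudocount of 0.1 (0.108) and with no filter (0.0798). The call with both drugs was lost without the first or second control (adjusted p = 0.0972 and 0.0791) and without the first combination library or the third (0.123 and 0.121), with a pseudocount of 0.1 (0.0513), with no filter (0.0681) and with just the compared groups fitted (0.0584). The H3 genes HIST1H3B (0.11 to 3.64 TPM over the 12 libraries), HIST1H3C (1.0 to 4.71), HIST1H3A (0.31 to 2.66) and HIST2H3D (0 to 3.05) overlapped between control and disulfiram groups. Their log2 fold changes with disulfiram were 0.41 ± 0.40, -0.38 ± 0.34, 0.10 ± 0.27 and -0.66 ± 0.46, and none passed.

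Among H4 genes, HIST2H4A (chr1:149832659-149839767, plus strand) and its copy HIST2H4B were described by their sum, since their coding sequences are identical. Their annotated lengths differ, so this sum still depends in part on the split. The sum was 6.07, 11.34 and 7.76 TPM in controls, 12.24, 14.25 and 15.87 with disulfiram, 7.49, 7.31 and 7.57 with thalidomide and 15.11, 12.57 and 12.67 with both. Every library with disulfiram lay above every library without it. Fitted as 1 gene, the sum had a log2 fold change of 0.72 ± 0.18 with disulfiram (adjusted p = 0.0202) and 0.66 ± 0.18 with both drugs (adjusted p = 0.0218). HIST2H4A alone, at 5.2 to 15.25 TPM, had 0.69 ± 0.21 (adjusted p = 0.0457) and 0.60 ± 0.21 (adjusted p = 0.0525), and HIST2H4B stayed between 0 and 2.13 TPM. The HIST2H4A call with disulfiram held in 1 of 12 omissions of a library, with log2 fold changes of 0.45 to 0.94 and adjusted p of 0.00825 to 0.156, and it was lost with median-of-ratios scaling (0.0733), the GC correction (0.0543), just the compared groups (0.120) and no filter (0.106). With both drugs HIST2H4A passed without the second control (0.85, adjusted p = 0.0125) and with a mean of at least 5 TPM required (adjusted p = 0.0466). HIST2H4A also overlaps HIST2H3C by 230 bases on the opposite strand.

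No H4 gene of the HIST1 locus passed the test against control with disulfiram or with both drugs. Their summed TPM was 12.5 ± 3.10 in controls, 9.22 ± 0.873 with disulfiram, 11.2 ± 3.6 with thalidomide and 7.47 ± 3.34 with both (SD, n = 3), against 8.39 ± 2.69, 14.1 ± 1.82, 7.46 ± 0.133 and 13.5 ± 1.44 for the HIST2 H4 genes. HIST1H4A had 5.64, 2.92 and 2.42 TPM in controls, 0, 0.85 and 1.74 with disulfiram, 0.84, 0.76 and 4.77 with thalidomide and 0.74, 0.76 and 2.95 with both. Its disulfiram libraries lay below its controls, with a log2 fold change of -1.38 ± 0.51 that did not pass (adjusted p = 0.0990). HIST1H4H had 3.64, 0.77 and 5.7 TPM in controls, 2.85, 3.15 and 2.45 with disulfiram, 1.78, 4.95 and 4.4 with thalidomide and 1.13, 1.16 and 1.33 with both, and its second control lay below every other library. Its log2 fold change was 0.00 ± 0.41 with disulfiram and -0.79 ± 0.41 with both drugs (adjusted p = 0.160), and without the second control the latter passed (-1.34, adjusted p = 0.0161). HIST4H4 (chr12:14767999-14771131), the H4 gene on chromosome 12, had 1.04, 0.34 and 0.62 TPM in controls, 1.18, 0.81 and 0.57 with disulfiram, 1.77, 1.56 and 0.8 with thalidomide and 2.99, 1.65 and 1.58 with both. It passed with both drugs against control (0.87 ± 0.24, adjusted p = 0.0243), and both drugs against disulfiram gave 0.71 ± 0.24 (adjusted p = 0.265). The call was lost without the second control (adjusted p = 0.0772), the third control (0.0642) or the first combination library (0.103), and with no filter (0.0613).

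Thalidomide alone changed no clustered histone gene past the threshold, and it changed none of the 15352 genes tested (0%) in limma. At an unadjusted p below 0.05 there were 873 of all genes and 3 clustered histone genes: HIST1H2AH (0.85 ± 0.23), HIST1H2AL (0.95 ± 0.30) and HIST1H3F (-0.68 ± 0.28). HIST1H2AH had 0.4, 0 and 0 TPM in controls. It passed the filter just through the first and second thalidomide libraries (1.22 and 1.16) and the third combination library (1.1). HIST1H2AL had no control at 1 TPM (0, 0.89 and 0.38). The values of these genes are therefore not independent of the filter. Adding thalidomide to disulfiram changed 0 of the 36 (background 0.00651%, or 1 gene). At an unadjusted p below 0.05 there were 4, namely HIST1H2BL (-0.61 ± 0.19), HIST4H4 (0.71 ± 0.24), HIST1H2BC (0.64 ± 0.22) and HIST1H2BE (0.55 ± 0.23). The interaction, which asks whether both drugs differ from the sum of the single drugs on the log2 scale, passed for 0 of 36 and 0 of all genes, with 4 of 36 and 1580 of all genes at an unadjusted p below 0.05. For the HIST2H2AA3 and HIST2H2AA4 sum it was -0.12 ± 0.31 (adjusted p = 0.881).

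With both drugs against thalidomide alone, which asks what disulfiram adds when thalidomide is present, 8 of 36 passed (background 32.2%), 6 higher (background 25.0%) and 2 lower (background 7.24%). HIST2H2AA3 rose by 1.5 ± 0.20 (adjusted p = 0.000567), HIST1H1C by 0.67 ± 0.15 (adjusted p = 0.00941) and HIST2H4A by 0.80 ± 0.21 (adjusted p = 0.0145). HIST1H2BK (0.57 ± 0.13, adjusted p = 0.0107), HIST1H2BD (0.91 ± 0.22, adjusted p = 0.0125) and HIST1H2AE (0.73 ± 0.26, adjusted p = 0.0474) were also higher, and HIST1H2BL (-0.76 ± 0.19, adjusted p = 0.0134) and HIST1H3A (-0.79 ± 0.27, adjusted p = 0.0407) were lower. With median-of-ratios scaling the split was 3 higher and 2 lower, and the calls of HIST1H1C (adjusted p = 0.0505), HIST1H2BK (0.0609) and HIST1H2AE (0.0904) were lost. HIST1H2BL and HIST2H2AA3 kept this call under every alternative that tested them. HIST1H2BL had 0.21, 0.22 and 0.2 TPM with both drugs and passed the filter through the other groups, so its call is not independent of the filter. Without the first combination library 4 passed, and the calls of HIST2H4A (adjusted p = 0.0594), HIST1H2BD (0.0575), HIST1H2AE (0.120) and HIST1H3A (0.0673) were lost. Without the first thalidomide library, those of HIST1H2BD (adjusted p = 0.0504), HIST1H2AE (0.37, adjusted p = 0.157) and HIST1H3A (0.0566) were lost. HIST1H2AE held in 3 of 12 and HIST1H3A in 6 of 12 such omissions, and for HIST1H3A omitting the third thalidomide library gave the smallest value (-0.50, adjusted p = 0.136).

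Genes were also split by their annotated 3′ end, a split the choice of genes did not use. Of 11 tested genes with a stem-loop and at least 100 annotated bases after it, 9 were above 0 with disulfiram (median 0.28), and of 7 with a stem-loop and less sequence after it, 5 were (median 0.39). Of 16 tested genes with no annotated 3′ UTR, 6 were above 0 and 10 below (median -0.33). With both drugs the 3 medians were 0.60, 0.44 and -0.43, and all genes tested had medians of 0.09 and 0.20. With thalidomide, where no gene passed, 10 of 11, 2 of 7 and 5 of 16 were above 0 (medians 0.10, -0.09 and -0.25). All genes tested had a median of -0.03 there, and these comparisons share the control libraries. HIST1H2BJ and HIST1H4C, with a 3′ UTR and no stem-loop found, were both below 0 with disulfiram (median -0.33). Near-identical copies were counted singly. The 35 genes with no annotated 3′ UTR, tested or not, summed to 112 ± 0.287 TPM in controls, 127 ± 14.4 with disulfiram, 98 ± 18.1 with thalidomide and 125 ± 5.25 with both (SD, n = 3), most of it in HIST1H2BK and HIST1H1C. Without these 2 genes, a choice made after values were seen, the direction with disulfiram was the opposite: the other 33 summed to 31.1 ± 5.46 TPM in controls, 20.7 ± 3.39 with disulfiram, 27.8 ± 5.57 with thalidomide and 19.3 ± 3.49 with both (SD, n = 3). Genes differ in level and locus between these classes, and this difference was not tested.

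Genes that act with the clustered histone genes were read from lists, and their counts stand beside the shares of all genes called: 8.73% higher and 4.52% lower with disulfiram, and 18.4% higher and 6.70% lower with both drugs. Of 30 genes of DNA replication and S phase, 10 were lower and 0 higher with disulfiram (median -0.32), and 11 were lower with both drugs (median -0.23). The replicative helicase subunit MCM5 fell from 76.7 ± 6.66 to 43.6 ± 1.56 TPM with disulfiram (log2 fold change -0.80 ± 0.10, adjusted p = 0.000482). MCM6 fell from 46.5 ± 2.77 to 27.6 ± 3.92 TPM (adjusted p = 0.00616) and MCM7 from 492 ± 30.6 to 322 ± 16.5 TPM (adjusted p = 0.00162). Leaving out 1 library left 4 to 13 lower in either comparison, and median-of-ratios scaling gave 16 and 17 lower. The part of this change in the histone values was not tested.

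Of 11 variant histone genes tested, most of which yield mRNAs with poly(A) tails outside S phase too, 0 were higher and 1 lower with disulfiram. It was H2AFY, the gene of macroH2A1, at 225 ± 6.73 TPM in controls and 163 ± 4.88 with disulfiram (log2 fold change -0.46 ± 0.07, adjusted p = 0.00169). With both drugs H2AFY (-0.47, adjusted p = 0.00157) and H2AFX (-0.51 ± 0.11, adjusted p = 0.00828) were lower and H3F3B, a gene of histone H3.3, was higher (0.40 ± 0.08, adjusted p = 0.00819). The variant genes summed to 2367 ± 116 TPM in controls and 2202 ± 88.3 with disulfiram, well above the 208 ± 20.7 and 328 ± 21.7 TPM of the 71 clustered genes. Of 22 genes of histone gene transcription and 3′ end processing, 2 were higher with disulfiram (HINFP and CRAMP1) and 5 were higher and 1 lower with both drugs, near the background of 8.73% and 18.4% higher. With both drugs CRAMP1, needed for H1 gene transcription, had 0.45 ± 0.11 (adjusted p = 0.0146) and ZNF473, a zinc finger protein of the U7 complex, had 0.52 ± 0.16 (adjusted p = 0.0326). These calls depended on scaling and library: median-of-ratios gave 0 higher in both comparisons, and leaving out 1 library gave 0 to 3 and 0 to 11 higher. Of 20 histone chaperone genes, 1 was lower with disulfiram, and 2 were higher and 4 lower with both, the importin IPO4 among the lower (-1.0 ± 0.18, adjusted p = 0.00390). The backgrounds there are 4.52% lower with disulfiram, and 18.4% higher and 6.70% lower with both drugs. Leaving out 1 library gave 1 to 2 lower with disulfiram, and 0 to 6 higher and 2 to 4 lower with both. The other alternatives gave 1 to 9 lower with disulfiram. Of 15 mitosis genes, 3 were lower with disulfiram, and 1 was higher and 4 lower with both drugs, against the same backgrounds. Leaving out 1 library gave 0 to 3 lower with disulfiram, and 0 to 5 higher and 1 to 4 lower with both.

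Other RNAs that have no poly(A) tail had calls in both directions in the fit of all 12 libraries, which is given here because the library kit is not stated. Of 24 such RNAs, 12 passed the filter, and 3 were higher (background 8.73%) and 3 lower (background 4.52%) with disulfiram. SNORD3A, the U3 small nucleolar RNA, was at 9.84 ± 11.7 TPM in controls and 53.5 ± 3.00 with disulfiram (3.22 ± 0.97, adjusted p = 0.0482), while RN7SL2, an RNA of the signal recognition particle, was lower (-1.96 ± 0.29, adjusted p = 0.00154). Leaving out 1 library gave 0 to 2 higher and 3 lower with disulfiram. With the second library left out of both groups given disulfiram, 0 were higher and 3 lower. The summed TPM of the list was 2244 ± 949 in controls and 823 ± 39.2 with disulfiram. The part of RNA selection in the histone values was not tested.

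The second disulfiram and second combination libraries stood apart, with deviations from their group that rose with gene GC content (Spearman rho across genes 0.60 and 0.67, against -0.59 to 0.48 in the others). For the pair HIST2H2AA3 and HIST2H2AA4 they gave 129.78 and 121.1 TPM, as in the other libraries with disulfiram. Genes at 1 TPM or more numbered 13693 to 15038 per library. All 12 hepatocyte markers were at 1 TPM or more in some group (summed 3982 to 8057 TPM per library, 4579 to 7248 in controls and 4352 to 4369 with disulfiram), as were 3 of 10 immune markers (CD3D, CD14 and LYZ), 1 of 7 endothelial, 5 of 8 fibroblast and 5 of 5 cholangiocyte markers. With disulfiram 2 of the 12 hepatocyte markers were lower (APOB and TTR, background 4.52%, list median -0.59). Of the 3 immune markers tested, CD3D (log2 fold change 1.06, adjusted p = 0.0424) and LYZ (1.05, adjusted p = 0.0213) were higher (background 8.73%), and CD14 had -0.73 (adjusted p = 0.0928). The pan-leukocyte gene PTPRC was at 0 to 0.16 TPM. The endothelial sum, nearly all PECAM1, was 0.79 to 1.55 TPM in controls and 3.55 to 7.42 with disulfiram. The part of these markers' changes in the histone values was not tested.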

How the data were processed

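RNA of 12 Huh7 libraries, 4 groups of 3, was summarised by the submitters as 1 table of TPM, and the TPM values were used as deposited. Per the submitters' processing notes the tools were HISAT2 2.0 and StringTie 1.3.0 with the hg38 build; the sources used here do not say how reads that fit several places were treated. TPM keeps no read counts, so the depth is unknown and no count test was made. Gene identifiers were named with GENCODE release 29: 58611 of 58884 Ensembl identifiers matched, and 71 clustered histone genes were found. The members and gene lists were chosen with earlier results of these data known.

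Genes with at least 1 TPM in at least 3 of 12 libraries (15352) were tested in 1 fit over all 12 libraries with limma 3.58.1 in R 4.3.3, two-sided, on log2(TPM + 1) with a mean-variance trend. All contrasts among the 4 groups named in the report were taken with Benjamini-Hochberg adjusted p below 0.05 over all genes tested. Near-identical copies were also summed before the fit. Genes named with their values are those past the threshold in any contrast, the 3 highest of each histone type, those outside HIST1 that passed the filter and their near-identical copies. From each other list, the 3 largest changes past the threshold or fewer were named. Stem-loops and coding identity were read from GENCODE transcripts with Python 3.11.15 and Biopython 1.88, and promoters from RefSeq. The fit was tested on simulated data. Alternatives were a pseudocount of 0.1, no filter, a mean of at least 5 TPM, median-of-ratios scaling, a GC correction, the replicate block, the compared groups only, and leaving out libraries.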

Additional observations from a re-analysis of the deposited data

How the results depend on the processing

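When the fit held just the libraries being compared, the 6 genes past the threshold with disulfiram became 3. With a mean of at least 5 TPM required, the 7 with both drugs became 4 and the 8 with both drugs against thalidomide became 5, since 9 of the genes were then tested, and median-of-ratios scaling also gave 5 there, for which the cause was not tested. Leaving out 1 library gave 2 to 7 with disulfiram, 2 to 9 with both drugs and 4 to 9 with both drugs against thalidomide. For thalidomide against control, both drugs against disulfiram and the interaction, 0 clustered histone genes passed under every alternative run.

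Of 21 calls of a gene in a comparison, 4 held in every alternative that tested the gene: HIST2H2AA3 in its 3 comparisons and HIST1H2BL with both drugs against thalidomide. The HIST1H2BL call is not independent of the filter, which that gene passed through groups other than the combination. Over the named genes in both comparisons with control, and the genes called with both drugs against thalidomide, 104 called values missed the threshold, 17 uncalled values passed it and 10 uncalled values changed sign. Across libraries left out in turn, HIST1H2BL with disulfiram ranged from -0.171 to 0.134 (0.12 without the first control, 0.13 without the third disulfiram library), HIST1H3A from -0.113 to 0.262 (lowest without the second control) and HIST1H4H from -0.551 to 0.409 (below 0 without the second control, at -0.01 without the first disulfiram library and -0.06 without the second). HIST1H4H with disulfiram became -0.0785 with median-of-ratios scaling, -0.0817 with the GC correction and -0.0616 with the second library left out of both groups given disulfiram. HIST3H2A with both drugs became -0.0226 with median-of-ratios scaling. The cause was not tested.

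Whether the replicate numbers pair the samples cannot be told from the labels or from 3 libraries per group. Of 18 same-numbered pairs of libraries, 4 had deviations correlated above 0.1 (range -0.15 to 0.37, against -0.30 to 0.23 for other pairs). The second disulfiram and second combination libraries gave the highest value of all (0.37), and the first of each gave 0.21. Their crossed pairs gave -0.28 and -0.30. With the replicate block, 4 genes passed with disulfiram, 6 with both drugs and 7 with both drugs against thalidomide. The block ended the calls of HIST1H3F with disulfiram (adjusted p = 0.0649) and with both drugs (0.0502), of HIST2H4A with disulfiram (0.0690) and of HIST1H2AE with both drugs against thalidomide (0.0610). TPM carries no depth, so genes near 1 TPM, H3 genes above all, cannot be given a counting error.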

Other observations

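Besides the 71 protein-coding genes, 19 other rows carried a clustered histone symbol without being annotated as protein coding. The transcribed pseudogene HIST2H2BD, beside HIST2H2AA3, had 2.9, 1.32 and 1.44 TPM in controls, 6.4, 2.4 and 2.78 with disulfiram, 3.65, 4.0 and 2.43 with thalidomide and 4.72, 2.28 and 2.63 with both drugs. The transcribed pseudogene HIST2H2BC, beside HIST2H2AA4, had 2.7, 4.11 and 2.19 TPM in controls, 3.58, 3.66 and 3.95 with disulfiram, 1.28, 0.65 and 2.79 with thalidomide and 1.58, 4.94 and 6.02 with both. Control and disulfiram libraries overlapped for both pseudogenes, which lie between the 2 copies of the H2A gene.

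Clustered histone genes formed 12 divergent pairs of neighbours less than 1000 bases apart (218 to 356 bases), of which 11 joined an H2A gene to an H2B gene, and both genes were tested in 5. With disulfiram, HIST1H2AM and HIST1H2BO had log2 fold changes of -0.51 and -0.30, HIST1H2BK and HIST1H2AH 0.30 and 0.59, and HIST1H2BL and HIST1H2AI -0.03 and -0.44. HIST1H2BC and HIST1H2AC had -0.20 and 0.45, and HIST2H2BE and HIST2H2AC 0.92 and -0.87. Of these, HIST2H2BE alone passed the test.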
